A study of Mus musculus with 16 samples.

Results

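The response to UVB was measured in dorsal skin of female C57Bl/6N mice, as the difference between 4 UVB-irradiated females and 4 females that received no UVB. These 8 libraries are those that the sample labels mark as female, out of 16 in the series, whose other 8 come from males treated in the same way. All females were wild type and 8 weeks old, with hair follicles at rest (telogen). The UVB females had been exposed to UVB 3 times. Tissue was collected on day 5, when 6 h had passed since the final exposure. The no-UVB females were not exposed. Whole dorsal skin was used. Each library therefore mixes epidermis, hair follicles, sebaceous glands, dermis, fat and the muscle layer below, and fewer cells of a type cannot be told apart from less RNA per cell.

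UVB is absorbed mainly in the epidermis, where it joins neighbouring pyrimidines in DNA. Keratinocytes answer through p53, which stalls the cell cycle and starts repair or cell death, and through inflammatory signals such as interleukin 1 family cytokines and prostaglandins. Over the following days the epidermis is known to thicken, as basal keratinocytes divide and cells above them enter an altered programme of cornification, the process by which keratinocytes crosslink proteins and lipids into the outer barrier. The same exposures are used to draw melanocyte stem cells out of the hair follicle, which is why the skin was studied here.

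The female libraries held 18907420 to 28888879 reads on genes. *Xist*, which coats the silenced X chromosome, was at 1018 to 1209 CPM (reads of a gene per 1000000 reads of the library, with all 16 libraries scaled together for this check) in the females and at most 5.13 CPM in any male, and the Y-linked gene *Ddx3y* reached at most 0.214 CPM in any female. On the scaling of the 8 females alone, used from here on, keratinocyte and dermal genes were abundant in every female, with *Krt5* at 1704 to 2828 CPM and *Col1a2* at 3371 to 6261 CPM. Reads on the opposite strand were 3.63 to 3.83% of the reads of both strands in UVB females and 4.06 to 4.16% in no-UVB females, without overlap. Unmapped reads were 12.001 to 16.4% and 10.1 to 13.4%, and the part of these measures in the results was not tested. The first principal component of the 8 libraries held 44.6% of the variance and separated the UVB from the no-UVB females. The second held 17.2% and spread mice within each group, from -29.5 in no-UVB female 1 to 24.02 in UVB female 2 and 23.4 in no-UVB female 4.

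Of 16883 genes with enough reads to test, 275 were raised more than 2-fold and 183 were lowered more than 2-fold in UVB females (adjusted p under 0.1 by edgeR, and a log2 fold change past 1). These are 1.63% and 1.08% of the genes tested. At any fold, 2162 genes (12.8%) were higher and 1787 (10.6%) were lower. With upper quartile scaling the split at any fold turned to 1737 higher and 2157 lower, so that the balance of small rises and falls depends on the scaling. The median log2 fold change over all tested genes was 0.0025. Rises were larger than falls: 84 genes rose by more than 2 on the log2 scale and 14 fell by more than 2. Of the 275 raised genes, 227 were protein coding and 28 were long noncoding RNAs, and of the 183 lowered genes these numbers were 150 and 21. Below, a value after ± is the standard error of the log2 fold change from that fit, each group has 4 mice, and a member of a gene list is called higher or lower at an adjusted p under 0.1 at any fold; the shares to set list counts against are therefore 12.8% and 10.6%. Where a count is given without certain mice, each of them was left out alone.

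The 15 largest rises included small proline-rich and late cornified envelope genes, protease inhibitors and the keratin *Krt6b*, and also the enzymes *Tdh*, *Olah* and *Gapdhs*. *Sprr1b*, a small proline-rich protein that is crosslinked into the envelope, was at 83.8, 171, 196 and 146 CPM in the UVB females and at 2.47, 4.02, 2.89 and 3.17 CPM in the no-UVB females (log2 fold change 5.57 ± 0.29, adjusted p = 2.3e-05). *Krt6b*, a keratin of wounded and hyperproliferative epidermis, was at 44.4, 109, 187 and 135 CPM in the UVB females and at 3.19, 3.94, 4.66 and 4.695 CPM in the no-UVB females (log2 fold change 4.85 ± 0.42, adjusted p = 0.00019). *Cstdc5*, a gene of the stefin A cluster of cysteine protease inhibitors, was at 163, 315, 146 and 54.99 CPM in the UVB females and at 2.87, 3.12, 3.54 and 4.06 CPM in the no-UVB females (log2 fold change 5.65 ± 0.51, adjusted p = 0.00021). In these 3 genes the lowest UVB female lay more than 10 CPM above the highest no-UVB female.

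Several of the 15 were nearly silent without UVB. *Lce3d*, a late cornified envelope protein, was at 7.36, 17.9, 17.03 and 13.6 CPM in the UVB females and at 0.225, 0.329, 0.579 and 0.369 CPM in the no-UVB females (log2 fold change 5.16 ± 0.36, adjusted p = 9.4e-05). *Tdh*, annotated as a threonine dehydrogenase, was at 4.83, 5.79, 6.27 and 2.23 CPM in the UVB females and at 0, 0.0411, 0.238 and 0 CPM in the no-UVB females (log2 fold change 5.76 ± 0.62, adjusted p = 0.00044). *Gapdhs*, the sperm-type glyceraldehyde phosphate dehydrogenase, was at 3.97, 3.86, 3.41 and 4.31 CPM in the UVB females and at 0.0898, 0.205, 0.102 and 0.475 CPM in the no-UVB females (log2 fold change 4.22 ± 0.35, adjusted p = 0.00011). *Spink7*, *Olah* and *Serpinb3a* had at most 3 counts in every no-UVB female, so that their folds are lower bounds: against 3 counts per library, *Spink7*, a serine protease inhibitor, was at least 43.8-fold higher, *Olah*, a fatty acid thioesterase, at least 24.2-fold and *Serpinb3a*, a clade B serpin, at least 18.98-fold. *Mug5*, a gene of the murinoglobulin family of protease inhibitors, was at 34.9, 5.18, 10.1 and 4.79 CPM in the UVB females and at 1.75, 0.205, 0.1702 and 0.0528 CPM in the no-UVB females (log2 fold change 4.66 ± 0.95, adjusted p = 0.011), and UVB female 1 held the most. The remaining genes among the 15 largest rises were *Stfa2* (5.57 ± 0.67), *Stfa3* (5.19 ± 0.68), *Lce3c* (4.53 ± 0.34), *Sprr2h* (4.47 ± 0.31) and *Sprr2g* (4.25 ± 0.42). The groups did not overlap in any of the 15, which the rule for naming them required. Over all tested genes, every UVB female was above every no-UVB female in 11.8% and below in 9.60%.

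**Figure D1:**
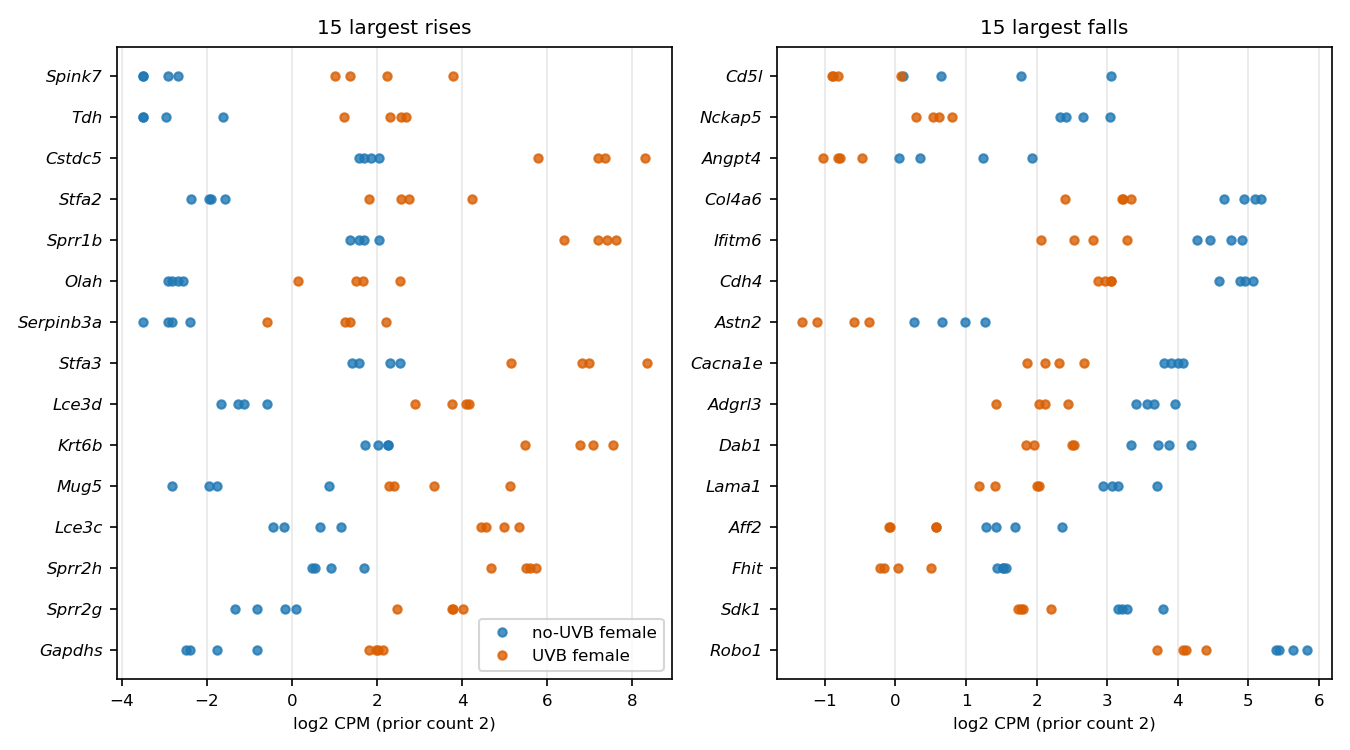
Log2 CPM (prior count 2) of the 15 genes with the largest rises (left) and the 15 with the largest falls (right) in females, one point per mouse, with UVB females in orange and no-UVB females in blue. The groups are apart in each of the 30 genes, which the choice of genes required, and the gaps on the left are wider, with log2 fold changes from 4.22 for Gapdhs to 5.76 for Tdh (leaving aside Spink7, Olah and Serpinb3a, which are at the floor without UVB), against -1.50 for Robo1 to -2.57 for Cd5l on the right.

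Among the tested members of gene families of the cornified envelope, the rise was nearly complete in some and patchy in others. Members nearly silent without UVB passed the expression filter only through the UVB females. The share of them that rose therefore follows in part from the filter. In the stefin A cluster 6 of 6 tested genes rose, with a median log2 fold change of 5.24 (4.69 with the genes at the floor set to their lower bound). *Stfa2l1* and *Cstdc4* of that cluster had too few reads to be tested. When genes had to hold 10 counts in every mouse, 4 of the cluster were tested and all 4 rose (median 4.68). The smallest rise there was in *Csta1*, the gene of the cluster with the most reads (log2 fold change 1.32 ± 0.21, adjusted p = 0.0032). All 6 genes of late cornified envelope group 3 rose (median 4.11), from *Lce3a* (3.79 ± 0.71) to *Lce3d*, although their summed level in UVB females was only 36.4 to 74.8 CPM. Of late cornified envelope group 1, 5 of 14 rose, led by *Lce1g* (2.65 ± 0.48), while its most abundant member *Lce1m* was at 591, 520.2, 557 and 449 CPM in the UVB females and at 539.8, 572, 458 and 429 CPM in the no-UVB females (log2 fold change 0.083 ± 0.12, adjusted p = 0.7). The groups overlapped. That count was 2 when every gene with a count was kept, 3 without UVB females 1, 2 or 3 or no-UVB females 1, 3 or 4 and 11 without UVB female 4. Copies within these families are alike in sequence, the tables list 0 reads that map to several places, and values of single copies are uncertain for that reason.

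The small proline-rich proteins showed the same contrast within a family. Of the 10 tested, 8 rose more than 2-fold, with a median log2 fold change of 3.12, and all 8 had no overlap between groups. The 2 that did not pass the test were the most abundant, *Sprr1a* (log2 fold change 0.85 ± 0.33, adjusted p = 0.11), and *Sprr4* (log2 fold change 0.55 ± 0.38, adjusted p = 0.37). *Sprr1a* was at 473, 441, 699 and 723 CPM in the UVB females and at 526, 377, 211 and 182 CPM in the no-UVB females, and no-UVB female 1 lay above UVB females 1 and 2. When genes had to hold 10 counts in every mouse, 4 of the *Sprr* genes and 1 of the *Lce3* genes were called, since most of these genes are too low without UVB to be tested that way.

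Of the other cornified envelope and filaggrin-type genes, 13 of 18 rose and 0 fell. *Flg*, which encodes profilaggrin, the source of the skin's natural moisturising factor, was at 828, 781, 724 and 297 CPM in the UVB females and at 89.8, 104, 93.6 and 69.95 CPM in the no-UVB females (log2 fold change 2.88 ± 0.30, adjusted p = 0.00039). *Cnfn*, cornifelin, was at 157, 193, 191 and 154 CPM in the UVB females and at 45.4, 48.9, 34.1 and 37.1 CPM in the no-UVB females (log2 fold change 2.07 ± 0.13, adjusted p = 4.1e-05), among the 5 smallest p-values of genes that rose. *Ivl*, involucrin, a protein laid early into the envelope, rose by 1.41 ± 0.14, *Casp14*, the caspase that helps process profilaggrin, by 2.30 ± 0.28, and the transglutaminase *Tgm3*, which makes the crosslinks, by 1.62 ± 0.27. *Loricrin*, the most abundant of the group and the main protein of the normal envelope, was at 2816, 2509, 2723 and 2225 CPM in the UVB females and at 2102, 2484, 2364 and 1809 CPM in the no-UVB females (log2 fold change 0.23 ± 0.14, adjusted p = 0.31). The groups overlapped. *Tchh*, trichohyalin of the hair follicle, had the lowest estimate (log2 fold change -0.32 ± 0.23, adjusted p = 0.38).

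Keratins differed among themselves. Of the stress keratins *Krt6a*, *Krt6b*, *Krt16* and *Krt17*, 3 rose. *Krt16* was at 70.6, 149, 213 and 188 CPM in the UVB females and at 29.3, 23.7, 12.9 and 13.2 CPM in the no-UVB females (log2 fold change 2.97 ± 0.38, adjusted p = 0.001) and *Krt6a* rose by 1.14 ± 0.37, a call lost without UVB females 2, 3 or 4 or no-UVB females 2, 3 or 4 or when every gene with a count was kept. *Krt17* was at 649.8, 498, 834 and 788 CPM in the UVB females and at 857, 758, 592 and 476 CPM in the no-UVB females (log2 fold change 0.046 ± 0.21, adjusted p = 0.91), and its groups overlapped. Of the keratins of normal epidermis, 5 of 10 rose, and the largest was *Krt2*, a keratin of the upper living layers, at 6.12, 14.2, 14.2 and 3.73 CPM in the UVB females and at 1.03, 1.72, 0.919 and 0.528 CPM in the no-UVB females (log2 fold change 3.17 ± 0.49, adjusted p = 0.003). *Krt1*, the partner of *Krt10* in suprabasal cells, rose by 1.99 ± 0.26, and *Krt10* itself, the keratin with the most reads, by 0.62 ± 0.17. The basal keratin *Krt14* rose by 0.47 ± 0.16, a call lost without UVB females 1, 3 or 4 or no-UVB females 2 or 4, with upper quartile scaling or in a fit of all 16 mice. Its partner *Krt5* was at -0.23 ± 0.18 (adjusted p = 0.42). *Krt15*, a keratin of basal cells and the hair follicle bulge, fell. It was at 965, 582, 1036 and 1019 CPM in the UVB females and at 2668, 1824, 1961 and 1333 CPM in the no-UVB females (log2 fold change -1.11 ± 0.24, adjusted p = 0.012). Every UVB female was below every no-UVB female.

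Proteases and inhibitors that control shedding of the cornified layer rose widely. Of 16 kallikreins, transmembrane serine proteases and Spink inhibitors tested, 12 rose and 0 fell (median 1.13). *Klk13* was at 12.9, 17.1, 11.3 and 4.94 CPM in the UVB females and at 0.943, 1.56, 0.851 and 0.422 CPM in the no-UVB females (log2 fold change 3.59 ± 0.43, adjusted p = 0.00072). *Spink5*, the inhibitor of kallikreins and the most abundant member, had log2 fold change 0.28 ± 0.18, adjusted p = 0.34. Of the clade B serpins 7 of 14 rose, with *Serpinb6c* giving the smallest p-value of any gene that rose. It was at 17.6, 16.6, 16.6 and 18.1 CPM in the UVB females and at 3.82, 3.696, 4.12 and 3.06 CPM in the no-UVB females (log2 fold change 2.22 ± 0.11, adjusted p = 1.5e-05). *Serpinb12* rose by 2.37 ± 0.46, whereas *Serpinb6a*, the serpin with the most reads, was at 0.085 ± 0.14 (adjusted p = 0.72). The serpin count was 4 without UVB female 1, UVB female 3 or no-UVB female 4.

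Connexins, which join keratinocytes through gap junctions, rose in 5 of 6 cases, most in *Gjb6* (2.07 ± 0.30) and *Gjb2* (1.86 ± 0.26), and less in *Gja1* (0.35 ± 0.11), the one with the most reads. Of 6 gasdermins, pore-forming proteins of cell death, *Gsdma* (1.07 ± 0.22) and *Gsdmc* (1.55 ± 0.50) rose. The call of *Gsdmc* was lost without UVB females 1, 2 or 3 or no-UVB females 3 or 4 or when every gene with a count was kept, and that of *Gja1* without UVB females 3 or 4 or no-UVB females 2 or 4. Basement membrane and hemidesmosome genes, which anchor the basal layer, went the other way, with 5 of 19 lower and 0 higher (median -0.26). *Col4a6*, a chain of basement membrane collagen, was at 9.29, 5.22, 9.19 and 10.02 CPM in the UVB females and at 30.7, 36.3, 34.004 and 25.2 CPM in the no-UVB females (log2 fold change -1.91 ± 0.19, adjusted p = 0.00033), so that every UVB female was below every no-UVB female. Its neighbour on the X chromosome *Col4a5*, transcribed in the other direction, fell by 0.93, and *Col7a1*, the anchoring fibril collagen, by 0.51. *Dst*, with the most reads of that group, was at -0.17 ± 0.15 (adjusted p = 0.47). The lower genes numbered 8 in a fit of all 16 mice.

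The promoters of raised genes were read from the reference genome to count those that hold known short motifs. The window ran from 250 bases before to 50 bases after the annotated start of each tested protein-coding gene, on the gene's strand, in GRCm39 with GENCODE M39 transcripts. The motif TGACTCA, searched also as TGAGTCA, which is the same site read on the opposite strand, is the letter pattern known to be bound by AP-1, the Fos and Jun family. It stood in 27 of 227 raised promoters (11.9%), in 7 of 150 lowered promoters (4.67%) and in 607 of 14763 overall (4.11%). TATAAA, searched also as TTTATA, stood in 20.7% of raised, 13.3% of lowered and 8.901% of all promoters. Both stood together in 12 raised promoters (5.29%), against 0.6096% of all. Most raised promoters lack the AP-1 letters, and the 27 that hold them include no late cornified envelope, stefin A or serpin gene. The 27 include *Sprr2d*, *Sprr2e*, *Sprr2f*, *Sprr2g*, *Sprr2h* and *Sprr2i*, which are copies of a single family and share their sequence, so that promoters are not independent of each other. No test was made of these shares, and a match of letters is not evidence that a factor binds.

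The promoters of 4 raised genes with the motif are shown because they come from separate families: a small proline-rich protein, an envelope protein, a stress keratin and a cytokine. Capitals mark TGACTCA or TGAGTCA and TATAAA, and each sequence is 300 bases long, 5′ to 3′ on the gene's strand. *Sprr2h* lies on the plus strand at chr3:92292742-92293041, *Ivl* on the minus strand at chr3:92480993-92481292, *Krt16* on the minus strand at chr11:100139746-100140045 and *Il36b* on the plus strand at chr2:24042911-24043210, all in GRCm39.
Sprr2h: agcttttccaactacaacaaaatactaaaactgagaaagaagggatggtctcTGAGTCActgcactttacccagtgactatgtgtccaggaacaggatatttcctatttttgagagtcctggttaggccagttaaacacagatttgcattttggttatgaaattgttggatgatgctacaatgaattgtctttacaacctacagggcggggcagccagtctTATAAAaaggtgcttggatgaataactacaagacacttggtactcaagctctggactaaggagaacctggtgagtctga
Ivl: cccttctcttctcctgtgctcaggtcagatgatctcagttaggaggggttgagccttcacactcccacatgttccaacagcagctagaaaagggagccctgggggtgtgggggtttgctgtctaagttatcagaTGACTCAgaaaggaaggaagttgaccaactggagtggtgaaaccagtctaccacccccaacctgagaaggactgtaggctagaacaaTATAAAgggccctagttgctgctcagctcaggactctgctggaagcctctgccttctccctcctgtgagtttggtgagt
Krt16: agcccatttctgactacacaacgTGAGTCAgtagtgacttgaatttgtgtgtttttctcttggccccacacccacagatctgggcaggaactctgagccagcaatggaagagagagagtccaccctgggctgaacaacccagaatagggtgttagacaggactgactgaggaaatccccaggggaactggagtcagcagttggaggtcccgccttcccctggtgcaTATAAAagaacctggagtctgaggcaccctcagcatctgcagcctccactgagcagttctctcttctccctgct
Il36b: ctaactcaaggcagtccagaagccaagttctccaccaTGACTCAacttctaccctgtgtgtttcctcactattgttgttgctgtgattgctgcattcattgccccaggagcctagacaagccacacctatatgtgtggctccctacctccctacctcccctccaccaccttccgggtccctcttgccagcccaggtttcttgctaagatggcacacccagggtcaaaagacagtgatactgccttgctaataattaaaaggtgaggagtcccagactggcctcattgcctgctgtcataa
In the first 3 of these, TATAAA begins at position -29, -29 and -24 from the annotated start, and the Il36b window has no TATAAA or TTTATA. The AP-1 letters begin at position -198 in Sprr2h, -116 in Ivl, -227 in Krt16 and -213 in Il36b.

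Of the interleukin 1 and 36 family, 8 of 14 genes were higher and 2 lower. The agonists of the interleukin 36 receptor led: *Il36a* was at 28.4, 50.3, 28.9 and 13.2 CPM in the UVB females and at 2.25, 2.22, 2.55 and 1.48 CPM in the no-UVB females (log2 fold change 3.81 ± 0.39, adjusted p = 0.00036). *Il36b* rose by 3.05 ± 0.30, and *Il36g* was at 92.8, 105, 117 and 81.9 CPM in the UVB females and at 20.2, 22.1, 18.8 and 16.2 CPM in the no-UVB females (log2 fold change 2.36 ± 0.13, adjusted p = 2.1e-05). The antagonists rose too. *Il36rn*, the blocker of the same receptor and the member with the most reads, was at 207, 268, 223 and 166 CPM in the UVB females and at 70.6, 78.6, 89.01 and 65.8 CPM in the no-UVB females (log2 fold change 1.51 ± 0.15, adjusted p = 0.00025). *Il1rn*, the blocker of the interleukin 1 receptor, rose by 1.17 ± 0.14. *Il18* rose by 1.35 ± 0.18 and *Il1b* by 1.03 ± 0.23, while the decoy receptor *Il1r2* fell by 0.40 and the coreceptor *Il1rap* by 0.32. *Il1a* was at 0.20 ± 0.25 (adjusted p = 0.64). *Il1r2* lost its call without UVB females 1, 2, 3 or 4 or no-UVB females 3 or 4 or when every gene with a count was kept.

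Genes of neutrophils and of their recruitment were scarce in these libraries. Only 2 of 8 genes of the neutrophil chemokine axis had enough reads to test, and both rose. *Cxcr2*, the receptor for these chemokines, was at 3.71, 3.78, 4.35 and 2.71 CPM in the UVB females and at 0.808, 0.493, 0.374 and 0.422 CPM in the no-UVB females (log2 fold change 2.80 ± 0.26, adjusted p = 0.00019). *Cxcl1* was at 1.29, 0.983, 2.196 and 1.69 CPM in the UVB females and at 0.943, 0.452, 0.306 and 0.475 CPM in the no-UVB females (log2 fold change 1.51 ± 0.37, adjusted p = 0.021). Of 12 neutrophil markers 4 could be tested, of which *Cxcr2* and *Clec4d* (1.49 ± 0.35) rose. *Cxcr2*, *Cxcl1* and *Clec4d* have too few reads without UVB to be tested when every mouse must hold 10 counts. The receptor *Csf3r* was at 0.087 ± 0.22 (adjusted p = 0.83) and *Retnlg* at -0.089 ± 0.32 (adjusted p = 0.88). *Ly6g*, *Mpo*, *Elane* and *Ngp*, which define neutrophils, had too few reads in all 8 females to be tested. *S100a9*, a chain of calprotectin, a protein of neutrophils and stressed keratinocytes, was at 9.94, 9.04, 9.05 and 6.49 CPM in the UVB females and at 2.83, 1.52, 1.29 and 1.42 CPM in the no-UVB females (log2 fold change 2.29 ± 0.24, adjusted p = 0.00033). Its partner *S100a8* was at 1.18, 4.73, 2.33 and 1.89 CPM in the UVB females and at 1.89, 2.46, 1.5998 and 3.32 CPM in the no-UVB females (log2 fold change 0.17 ± 0.39, adjusted p = 0.81), with overlapping groups and the most in UVB female 2. Of the S100 genes 5 of 11 rose, the most abundant being *S100a14* (0.68 ± 0.13).

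Antimicrobial genes rose in 7 of 11 cases and fell in 0. *Wfdc12*, a protease inhibitor with a whey acidic protein core, was at 2.79, 3.14, 1.84 and 1.404 CPM in the UVB females and at 0.539, 0.698, 0.374 and 0.264 CPM in the no-UVB females (log2 fold change 2.27 ± 0.35, adjusted p = 0.0022). The beta-defensin *Defb14* rose by 1.97 ± 0.39, the leukocyte protease inhibitor *Slpi* by 1.61 ± 0.26 and lipocalin 2, *Lcn2*, by 1.46 ± 0.19. Complement *C3* had the most reads, at -0.33 ± 0.27 (adjusted p = 0.45). Of 17 CC chemokines, 2 were higher and 1 was lower. The higher ones numbered 1 without UVB female 4, 4 in a fit of all 16 mice and 5 without no-UVB female 1, and the lower ones 0 without UVB females 2, 3 or 4 or no-UVB female 1 or when every gene with a count was kept. *Ccl20* lost its call without UVB females 3 or 4 or no-UVB females 2, 3 or 4 and *Ccl27a* without UVB females 2, 3 or 4 or no-UVB females 1 or 2 or when every gene with a count was kept. *Ccl19* was at 4.73, 3.59, 3.81 and 5.86 CPM in the UVB females and at 2.25, 2.96, 1.43 and 2.37 CPM in the no-UVB females (log2 fold change 1.001 ± 0.24, adjusted p = 0.019). *Ccl20* rose by 0.77 ± 0.27, and *Ccl27a*, the keratinocyte chemokine for skin-homing T cells, fell by 0.80. *Ccl2*, the monocyte chemokine, was at 7.36, 9.19, 9.64 and 11.1 CPM in the UVB females and at 7.903, 6.69, 9.77 and 7.02 CPM in the no-UVB females (log2 fold change 0.24 ± 0.16, adjusted p = 0.32). The groups overlapped.

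Of the 20 genes of prostaglandin synthesis, receptors and breakdown, 2 were higher and 6 lower. *Ptgs2*, the inducible cyclooxygenase, was at 2.26, 2.76, 6.27 and 4.45 CPM in the UVB females and at 1.17, 2.38, 1.94 and 2.32 CPM in the no-UVB females (log2 fold change 1.01 ± 0.34, adjusted p = 0.071), and UVB female 1 lay within the no-UVB range. *Ptges*, the synthase of prostaglandin E2, was at 62.9, 64.997, 66.6 and 77.2 CPM in the UVB females and at 38.6, 41.2, 51.6 and 51.9 CPM in the no-UVB females (log2 fold change 0.57 ± 0.11, adjusted p = 0.0078), with no overlap. The lower ones included the prostaglandin D2 synthases *Ptgds* (-0.93 ± 0.29) and *Hpgds* (-0.37 ± 0.099), the receptors *Ptgdr* (-0.71 ± 0.23) and *Ptger4* (-0.39 ± 0.087), and the thromboxane synthase *Tbxas1* (-0.62 ± 0.18). *Ptgs1*, the constitutive cyclooxygenase, was at 0.24 ± 0.095 (adjusted p = 0.11). *Ptgs2* lost its call without UVB females 3 or 4 or no-UVB females 1 or 3 or when every gene with a count was kept, *Ptgds* without UVB females 2 or 4 or no-UVB female 1, *Ptgdr* without UVB females 1, 2 or 3 or no-UVB females 1 or 2 or with counts of both strands and *Tbxas1* without UVB females 1, 3 or 4. Of 8 lipoxygenase genes 3 rose. *Alox12b*, which with *Aloxe3* (0.75 ± 0.11) oxidises barrier lipids, was at 90.02, 96.2, 114 and 102 CPM in the UVB females and at 38.9, 47.2, 42.9 and 33.9 CPM in the no-UVB females (log2 fold change 1.30 ± 0.11, adjusted p = 0.00013). *Alox5*, the leukotriene enzyme of leukocytes, fell by 0.57. The lower lipoxygenase genes numbered 0 without UVB female 3 and 2 without no-UVB female 4.

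Targets of p53 rose in 18 of 25 cases and fell in 0, with a median log2 fold change of 0.43, against a median near 0 for all genes. *Pmaip1*, the apoptosis gene Noxa, was at 11.8, 10.97, 12.8 and 16.6 CPM in the UVB females and at 7.72, 5.503, 5.51 and 4.43 CPM in the no-UVB females (log2 fold change 1.16 ± 0.18, adjusted p = 0.0025). The stress cytokine *Gdf15* rose by 1.12 ± 0.32 (not called without no-UVB females 2 or 3), the cell cycle inhibitor *Cdkn1a* by 1.09 ± 0.10, the nuclease *Aen* by 1.06 ± 0.14 and *Mdm2*, which degrades p53, by 0.40 ± 0.075. *Perp*, a desmosome component and the most abundant target, was at 0.15 ± 0.14 (adjusted p = 0.53), and the damage sensors *Xpc* and *Ddb2* were at -0.14 ± 0.092 and -0.12 ± 0.11 (adjusted p = 0.33 and 0.52). Of the 27 nucleotide excision repair genes, 5 rose, *Ercc5* most (log2 fold change 0.46 ± 0.095, adjusted p = 0.01), and 0 fell. The repair genes called higher were 3 without UVB female 1. Without no-UVB female 4, 1 p53 target and 1 repair gene were lower.

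Of the NRF2 antioxidant genes 6 of 25 rose. *Srxn1*, sulfiredoxin, was at 35.9, 42.7, 48.6 and 50.3 CPM in the UVB females and at 25.2, 24.1, 26.3 and 27.1 CPM in the no-UVB females (log2 fold change 0.79 ± 0.10, adjusted p = 0.00099). The classical targets *Nqo1* and *Hmox1* were at 0.17 ± 0.11 and 0.0085 ± 0.068 (adjusted p = 0.33 and 0.95). None of 4 metallothioneins passed the test in edgeR; their unadjusted p-values were all over 0.05, and DESeq2's Wald test called 0. Of 21 immediate early genes, 3 were higher and 1 was lower. *Fosl1*, the AP-1 member Fra-1, was at 1.93, 2.42, 5.11 and 4.502 CPM in the UVB females and at 1.75, 1.602, 0.953 and 1.48 CPM in the no-UVB females (log2 fold change 1.28 ± 0.33, adjusted p = 0.027). *Junb* rose by 0.49 ± 0.15 and *Egr3* by 0.53 ± 0.18, and *Atf3* fell by 0.65. *Fos* was at 0.17 ± 0.26 (adjusted p = 0.71). The count of higher genes was 1 without UVB females 3 or 4 or no-UVB females 3 or 4 and 5 without UVB female 2, and that of lower genes 0 without UVB females 1 or 4 or no-UVB female 2, when every gene with a count was kept or in a fit of all 16 mice and 2 without UVB female 3. *Junb* lost its call without UVB females 3 or 4 or no-UVB females 3 or 4, *Egr3* without UVB females 1, 3 or 4 or no-UVB females 1, 3 or 4 or when every gene with a count was kept, *Fosl1* with counts of both strands and *Atf3* without UVB females 1 or 4 or no-UVB female 2, when every gene with a count was kept or in a fit of all 16 mice.

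Genes of cell division rose broadly but by little. Of the DNA replication and G1/S genes 27 of 39 rose, none more than 2-fold, with a median of 0.34. *Ccne2*, cyclin E2, was at 9.51, 8.58, 12.2 and 10.3 CPM in the UVB females and at 5.84, 5.59, 4.799 and 5.22 CPM in the no-UVB females (log2 fold change 0.92 ± 0.13, adjusted p = 0.0016). *Pcna*, the replication clamp with the most reads, rose by 0.29 ± 0.095, a call lost without UVB females 2, 3 or 4 or no-UVB females 2 or 4 or with upper quartile scaling. *Pola1*, a subunit of DNA polymerase alpha and the longest gene of that list, fell by 0.55. Without UVB female 3 or without no-UVB female 4, 15 of these genes were called higher. Of the mitosis and G2/M genes 26 of 34 rose and 0 fell (median 0.47), from 21 to 26 when any single mouse was left out, with 1 lower without UVB female 2. The spindle checkpoint kinase *Ttk* was at 16.4, 17.5, 21.6 and 22.2 CPM in the UVB females and at 10.96, 11.5, 10.4 and 10.97 CPM in the no-UVB females (log2 fold change 0.82 ± 0.11, adjusted p = 0.0011). The proliferation marker *Mki67* was at 94.8, 110.4, 129.8 and 107 CPM in the UVB females and at 82.6, 89.7, 81.4 and 65.8 CPM in the no-UVB females (log2 fold change 0.47 ± 0.11, adjusted p = 0.02). In both, every UVB female was above every no-UVB female. Of the ribosome biogenesis genes 13 of 21 rose and all 21 had a positive estimate, led by *Nop58* (0.66 ± 0.20), which lost its call without UVB females 3 or 4 or no-UVB females 2 or 4 or when every gene with a count was kept. That count fell to 7 without UVB female 3 or UVB female 4 and to 8 without no-UVB female 2.

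Of the 11 genes of the EGF receptor and its ligands, 2 were higher (18.2%) and 1 was lower (9.09%), against 12.8% and 10.6% of all genes. *Hbegf*, called higher, lost its call without UVB females 3 or 4 or no-UVB females 1, 3 or 4, with DESeq2 size factors, with upper quartile scaling or in a fit of all 16 mice, and the lower genes numbered 2 with upper quartile scaling or in a fit of all 16 mice and 3 without no-UVB female 1. *Epgn*, epigen, was at 7.68, 14.7, 36.1 and 39.98 CPM in the UVB females and at 2.25, 3.45, 3.78 and 3.904 CPM in the no-UVB females (log2 fold change 2.88 ± 0.49, adjusted p = 0.0048), UVB females 3 and 4 being the highest. *Btc*, betacellulin, another ligand of the same receptor, was at 21.5, 17.998, 28.01 and 19.7 CPM in the UVB females and at 47.7, 54.6, 54.9 and 43.5 CPM in the no-UVB females (log2 fold change -1.21 ± 0.14, adjusted p = 0.00046). Every UVB female was below every no-UVB female. *Hbegf* rose by 0.51 ± 0.19, and *Areg*, *Ereg* and *Tgfa* did not pass the test (0.26 ± 0.23, 0.12 ± 0.22 and -0.01 ± 0.094; adjusted p = 0.48, 0.76 and 0.96).

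Of the 20 genes of barrier ceramide synthesis, 16 were higher and 0 lower (median 0.59), and the count was 16 or 17 whichever mouse was left out. *Elovl4*, which lengthens the very long fatty acids of these ceramides and is the most abundant member, was at 2016, 1428, 2084 and 1772 CPM in the UVB females and at 1077, 1116, 1141 and 729.8 CPM in the no-UVB females (log2 fold change 0.85 ± 0.17, adjusted p = 0.0098). *Degs2*, which makes phytoceramides, rose by 1.78 ± 0.41 (not called when every gene with a count was kept), *Pnpla1*, which makes acylceramides, by 1.38 ± 0.13 and *Cers3*, the epidermal ceramide synthase, by 1.15 ± 0.13. Of 24 cholesterol synthesis genes, 17 were higher and 0 lower (median 0.49). *Hsd17b7*, a ketoreductase of the pathway, was at 97.5, 73.4, 124 and 115 CPM in the UVB females and at 33.99, 32.3, 46.4 and 33.6 CPM in the no-UVB females (log2 fold change 1.48 ± 0.17, adjusted p = 0.00067). *Srebf2*, the transcription factor that drives the pathway, was at 0.091 ± 0.11 (adjusted p = 0.63). Of 12 sebaceous gland lipid genes 6 rose, most in *Elovl3*, at 210.3, 115, 146 and 165 CPM in the UVB females and at 61.5, 45.9, 46.9 and 26.7 CPM in the no-UVB females (log2 fold change 1.81 ± 0.25, adjusted p = 0.0016), while *Scd1*, with the most reads, was at 0.048 ± 0.23 (adjusted p = 0.91). The sebaceous count was 1 when every gene with a count was kept, 2 without UVB females 1 or 3 and 3 without UVB female 4. Without no-UVB female 1, 1 cholesterol gene was lower.

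**Figure D2:**
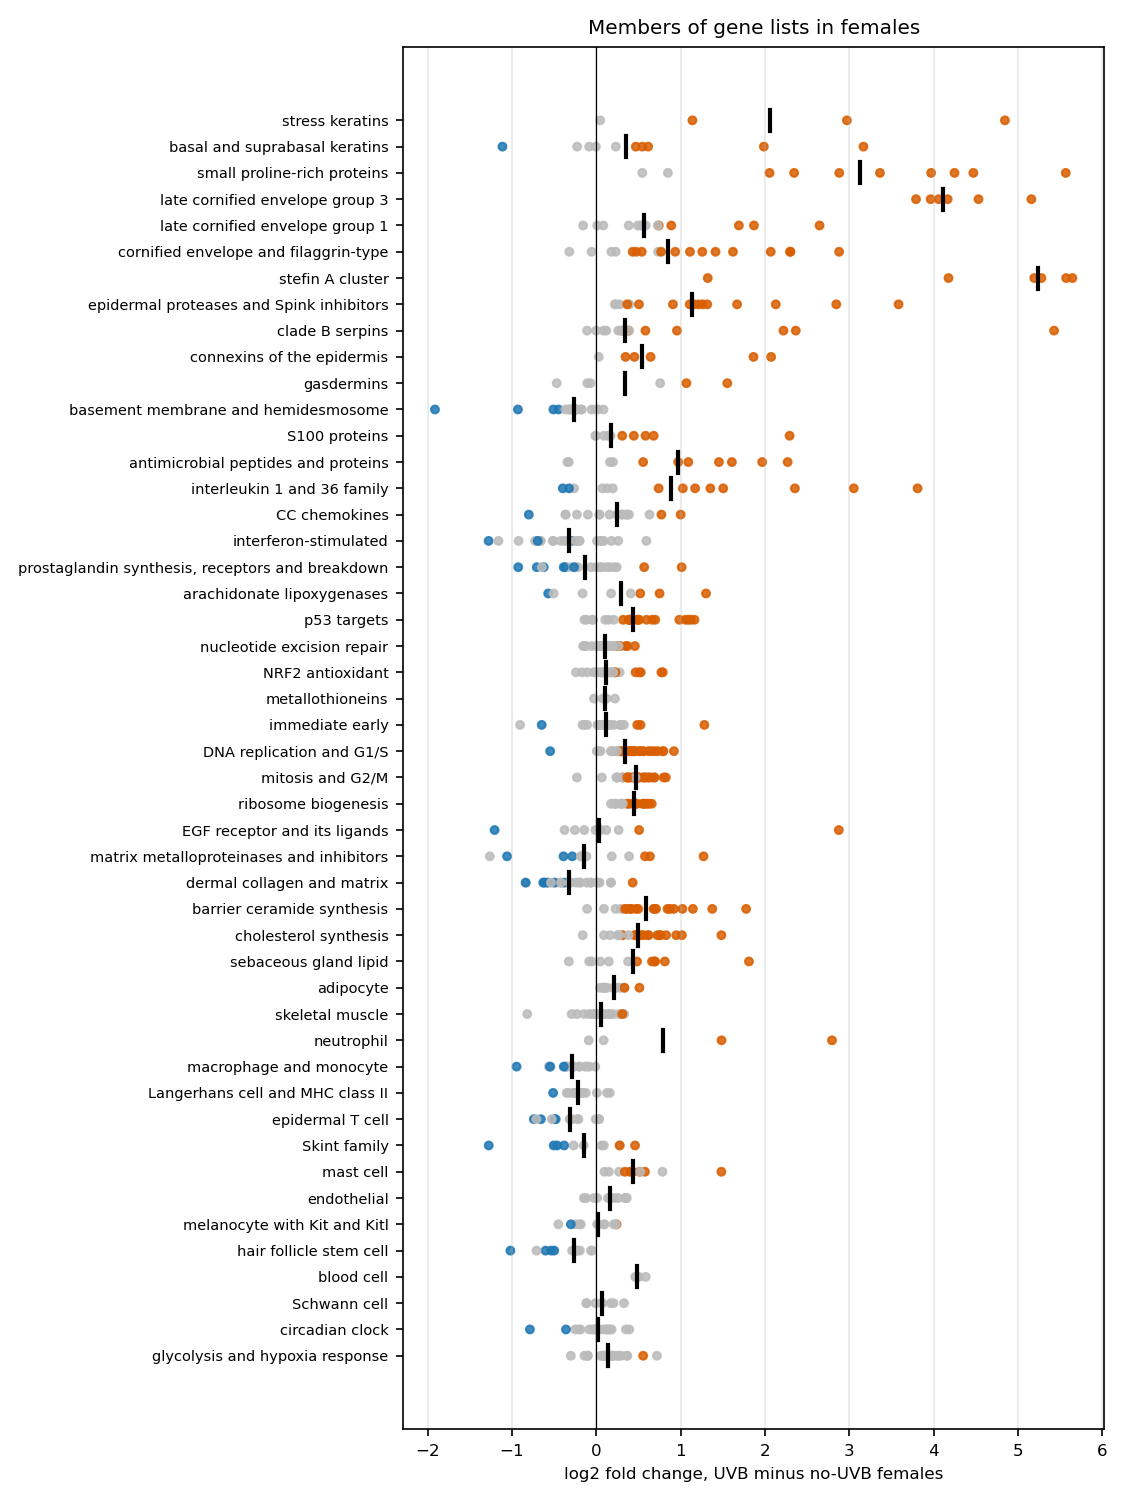
Log2 fold change (UVB minus no-UVB females) of every tested member of 48 gene lists, one point per gene, with genes higher at an adjusted p under 0.1 in orange, genes lower in blue and the rest in grey; the black bar is the list's median. The points of Cstdc6 and Serpinb3a, at the floor without UVB, are fitted values and no bound. The Lce3, stefin A and small proline-rich lists sit farthest to the right with medians of 4.11, 5.24 and 3.12. The medians of the cell cycle, ceramide, cholesterol and sebaceous lipid lists lie close together between 0 and 1, with single genes outside that range.

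The largest falls by the naming rule were in *Cd5l* and *Nckap5*. *Cd5l*, a secreted protein of macrophages, was at 0.967, 0.454, 0.448 and 0.484 CPM in the UVB females and at 0.988, 1.48, 3.34 and 8.18 CPM in the no-UVB females (log2 fold change -2.57 ± 0.67, adjusted p = 0.03), but the lowest no-UVB female was close to the highest UVB female, and the call was lost when every gene with a count was kept. *Nckap5*, which spans 917 kb, was at 1.45, 1.13, 1.66 and 1.36 CPM in the UVB females and at 6.24, 8.17, 4.97 and 5.28 CPM in the no-UVB females (log2 fold change -2.14 ± 0.20, adjusted p = 0.00019). *Cdh4*, R-cadherin, was at 7.25, 7.71, 8.25 and 8.18 CPM in the UVB females and at 23.98, 30.8, 33.3 and 29.5 CPM in the no-UVB females (log2 fold change -1.91 ± 0.11, adjusted p = 2.3e-05), the smallest p-value of any gene that fell. *Robo1*, the receptor for Slit ligands, was at 17.2, 13.01, 21.02 and 16.7 CPM in the UVB females and at 41.9, 56.7, 49.5 and 42.99 CPM in the no-UVB females (log2 fold change -1.50 ± 0.15, adjusted p = 0.00025). In the last 3 genes the groups were well apart. The others of the 15 were *Angpt4* (-2.0 ± 0.45), *Col4a6*, *Ifitm6* (-1.91 ± 0.24), *Astn2* (-1.76 ± 0.32), *Cacna1e* (-1.71 ± 0.16), *Adgrl3* (-1.65 ± 0.20), *Dab1* (-1.59 ± 0.21), *Lama1* (-1.57 ± 0.23), *Aff2* (-1.52 ± 0.29), *Fhit* (-1.50 ± 0.20) and *Sdk1* (-1.50 ± 0.18).

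Many of these genes are long. Of the 15, *Fhit* spans 1612 kb, *Dab1* 1125 kb, *Astn2* 1024 kb and *Sdk1* 974 kb from first to last annotated base, and the genes with the smallest p-values among falls were also long: *Arb2a* (465 kb, -1.09 ± 0.076), *Pard3b* (1003 kb, -1.40 ± 0.099), *Magi1* (608 kb, -1.30 ± 0.098) and *Scaper* (388 kb, -1.20 ± 0.092). *Pard3b*, a polarity protein, was at 13.4, 13.7, 11.97 and 10.2 CPM in the UVB females and at 31.5, 33.8, 32.6 and 31.8 CPM in the no-UVB females. *Magi1*, a scaffold of cell junctions, was at 12.8, 12.7, 10.2 and 11.1 CPM in the UVB females and at 29.8, 28.1, 30.8 and 26.1 CPM in the no-UVB females. The median span was 217 kb for the 150 lowered protein-coding genes, 10.2 kb for the 227 raised ones and 25.99 kb for all 14763 tested.

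Sorted into 10 classes of equal size by span, the protein-coding genes changed stepwise at the long end. In the shortest class (up to 5.45 kb), 24.8% of genes were higher and 2.302% lower, with a median log2 fold change of 0.14. In the longest class (over 130.4 kb), 1.76% were higher and 49.6% lower, with a median of -0.34. The class before it, from 75.5 to 130.4 kb, had 21.3% lower. Of the 150 protein-coding genes lowered more than 2-fold 84 were in the longest class, and of the 227 raised ones 2 were. The share lower in the longest class was 40.4% to 50.2% whichever mouse was left out. In single mice, the median of the longest class relative to the mean of the no-UVB females was -0.37 to -0.27 in the UVB females and -0.051 to 0.035 in the no-UVB females on the log2 scale, so the groups were apart. The median level of the longest class was 23.8 CPM, between that of the first class (15.6 CPM) and the ninth (39.8 CPM). Long genes were lower in males too: 73.7% of the longest class, against 30.5% of all genes tested in males, with a median of -0.50.

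**Figure D3:**
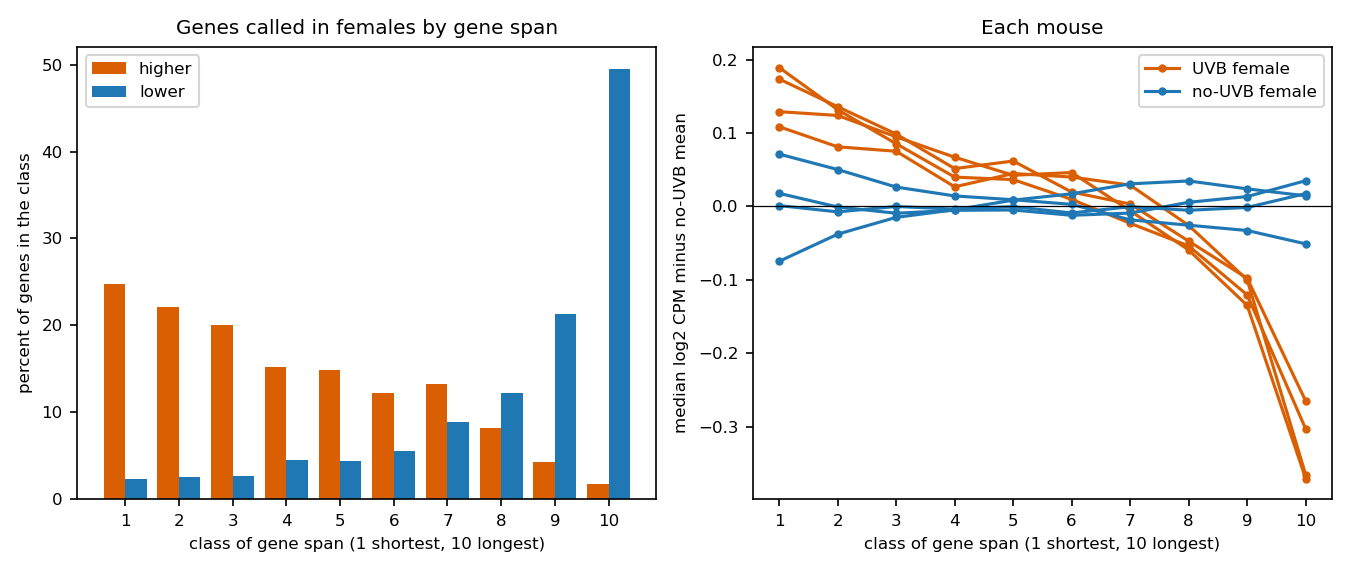
Left: percent of tested protein-coding genes that were higher (orange) or lower (blue) at an adjusted p under 0.1 in UVB females, in 10 classes of gene span from shortest to longest. Right: median log2 CPM of each class relative to the no-UVB mean, one line per mouse, UVB females in orange and no-UVB females in blue. The share lower reaches 49.6% in the longest class, where the 4 UVB mice lie between -0.37 and -0.27.

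Of the dermal collagen and matrix genes, 6 of 28 were lower and 1 was higher (median -0.33). *Eln*, elastin, fell by 0.84, and *Lum*, lumican, was the gene that rose (log2 fold change 0.43 ± 0.11, adjusted p = 0.025). *Col3a1*, the most abundant, was at 3154, 8567, 4379 and 4559 CPM in the UVB females and at 5591, 5627, 6780.4 and 5579 CPM in the no-UVB females (log2 fold change -0.19 ± 0.27, adjusted p = 0.68), with UVB female 2 above every other female. Summed over the list, the level was 18963 to 34480.3 CPM in the UVB females and 28678 to 30876 CPM in the no-UVB females. The lower matrix genes numbered 2 without UVB females 1 or 3, 3 without UVB female 4 or no-UVB female 3 or when every gene with a count was kept, 10 by DESeq2 and 12 without UVB female 2. Of 12 metalloproteinases and inhibitors tested, 3 were higher and 3 lower. The lower ones numbered 1 without UVB female 3. *Timp1*, an inhibitor, was at 3.71, 7.83, 5.11 and 6.78 CPM in the UVB females and at 2.56, 1.89, 2.79 and 2.48 CPM in the no-UVB females (log2 fold change 1.27 ± 0.23, adjusted p = 0.0056). *Mmp3* rose by 0.64 ± 0.16, and *Mmp9* fell by 1.06.

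Of the epidermal T cell genes 4 of 14 were lower and 0 higher (median -0.31). *Trdc*, the constant segment of the T cell receptor delta chain, was at 6.34, 4.76, 7.71 and 7.696 CPM in the UVB females and at 8.44, 12.9, 12.3 and 10.5 CPM in the no-UVB females (log2 fold change -0.74 ± 0.18, adjusted p = 0.02), with no overlap, and *Cd3e* fell by 0.50, a call lost without no-UVB female 2. The number of lower T cell genes was 1 without no-UVB female 2 and 2 without UVB female 1, 3 or 4. In the Skint family, keratinocyte proteins that shape these T cells, 4 were lower and 2 higher. *Skint7* was at 16.4, 13.6, 21.8 and 17.5 CPM in the UVB females and at 37.5, 50.2, 47.6 and 32.2 CPM in the no-UVB females (log2 fold change -1.28 ± 0.17, adjusted p = 0.0013). *Skint9* was at 76.2, 62.2, 87.7 and 65.5 CPM in the UVB females and at 55.9, 58.3, 52.8 and 44.8 CPM in the no-UVB females (log2 fold change 0.46 ± 0.12, adjusted p = 0.027). Neither gene's groups overlapped. The lower Skint genes numbered 2 without no-UVB female 3, and the higher ones 1 without UVB females 1, 2 or 3 or no-UVB females 1, 3 or 4, with upper quartile scaling or when every gene with a count was kept. All 17 macrophage and monocyte genes had a negative estimate, and 4 were lower: *Timd4* (-0.95 ± 0.34), *F13a1* (-0.55 ± 0.20), *Cx3cr1* (-0.39 ± 0.13) and *Adgre1* (-0.36 ± 0.12). The macrophage count was 0 without UVB females 1 or 3 or no-UVB female 4 and 1 without UVB female 4 or no-UVB female 3 or when every gene with a count was kept. *Timd4* lost its call without UVB females 1, 2, 3 or 4 or no-UVB females 3 or 4, when every gene with a count was kept or with counts of both strands, *F13a1* without UVB females 1, 3 or 4 or no-UVB females 3 or 4 or when every gene with a count was kept, *Cx3cr1* without UVB females 1, 2 or 3 or no-UVB females 1, 2 or 4 or when every gene with a count was kept and *Adgre1* without UVB females 1, 3 or 4 or no-UVB females 3 or 4. Of the Langerhans cell and MHC class II genes, *Il34*, the keratinocyte cytokine that maintains Langerhans cells, was the one that fell (log2 fold change -0.51 ± 0.097, adjusted p = 0.0065), and *Cd207*, langerin, was at -0.27 ± 0.18 (adjusted p = 0.35). The lower genes of that list numbered 3 without UVB female 4, by DESeq2, with upper quartile scaling, when every gene with a count was kept or in a fit of all 16 mice and 5 without no-UVB female 3.

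Mast cell genes had positive estimates in all 11 and rose in 6. *Fcer1a*, a chain of the IgE receptor, was at 1.93, 2.87, 1.12 and 1.31 CPM in the UVB females and at 0.629, 0.7803, 0.477 and 0.739 CPM in the no-UVB females (log2 fold change 1.48 ± 0.33, adjusted p = 0.014). Their count was 2 without UVB female 1 or no-UVB female 2 and 3 without UVB female 2, no-UVB female 3 or no-UVB female 4. Interferon-stimulated genes rose in 0 of 31 cases and fell in 5 (median -0.32). *Oas3*, an antiviral synthetase, was at 7.41, 5.97, 4.75 and 5.95 CPM in the UVB females and at 5.48, 7.84, 23.04 and 21.8 CPM in the no-UVB females (log2 fold change -1.28 ± 0.43, adjusted p = 0.074). No-UVB females 3 and 4 were high, no-UVB female 1 lay among the UVB females and no-UVB female 2 just above them. *Oas3* lost its call without UVB females 1, 2, 3 or 4 or no-UVB females 3 or 4 or when every gene with a count was kept. The number lower was 2 without UVB females 3 or 4 or no-UVB females 3 or 4, 3 without UVB female 1 or when every gene with a count was kept, 10 without no-UVB female 2 or in a fit of all 16 mice and 15 without no-UVB female 1, and 1 was higher without no-UVB female 1.

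Of 12 tested genes in a list of melanocyte genes together with *Kit* and its ligand *Kitl*, 1 was higher and 1 lower. Melanocytes are the cells the study follows. *Kitl*, the ligand made by keratinocytes for the Kit receptor of melanocytes, rose. It was at 70.6, 76.1, 72.03 and 66.7 CPM in the UVB females and at 67.99, 58.6, 57.7 and 57.4 CPM in the no-UVB females (log2 fold change 0.24 ± 0.077, adjusted p = 0.06), and UVB female 4 lay below no-UVB female 1. Its call was lost without UVB females 1, 2 or 3 or no-UVB females 2, 3 or 4, with upper quartile scaling or when every gene with a count was kept. *Mitf*, the master regulator of the lineage, fell by 0.30 (adjusted p = 0.058), a call lost without UVB females 1, 3 or 4. The pigment genes *Dct*, *Tyr*, *Tyrp1* and *Pmel* were at -0.18 ± 0.33, -0.20 ± 0.54, 0.02 ± 0.39 and -0.25 ± 0.38, none past the threshold. *Dct* was at 16.3, 14.7, 19.6 and 25.7 CPM in the UVB females and at 40.4, 16.8, 13.6 and 15.98 CPM in the no-UVB females, with overlapping groups and the most in no-UVB female 1. Without that mouse *Dct*, *Tyr* and *Pmel* were at 0.30, 0.60 and 0.30 (adjusted p = 0.304, 0.308 and 0.4096). *Tyrp1* then passed the test, at 0.66 (adjusted p = 0.0382). Hair follicle stem cell genes fell in 4 of 12 cases and rose in 0, all 12 estimates being negative. *Fgf18*, a growth factor of the resting bulge, was at 5.16, 4.12, 5.47 and 8.13 CPM in the UVB females and at 9.25, 12.6, 13.6 and 10.7 CPM in the no-UVB females (log2 fold change -1.02 ± 0.20, adjusted p = 0.0085). The stem cell markers *Lgr5* and *Lgr6* fell by 0.54 and 0.60. *Cd34*, with the most reads of that list, was at -0.23 ± 0.11 (adjusted p = 0.2). Of 17 genes of the hair shaft and inner root sheath only 2 had enough reads to test. Neither passed in edgeR, where 1 had an unadjusted p under 0.05, and 1 was called lower by DESeq2, without no-UVB female 1 and when every gene with a count was kept.

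Of 12 endothelial genes none passed edgeR's test at an adjusted p under 0.1, with 1 at an unadjusted p under 0.05 and 0 called by DESeq2. For the 8 Schwann cell genes these numbers were 0, 0 and 0, and for the 5 blood cell genes 0, 0 and 0. The blood cell genes all had positive estimates, with a median log2 fold change of 0.49. The endothelial genes called higher numbered 1 without no-UVB females 1 or 4. Of 22 skeletal muscle genes 1 was higher, *Tcap* (0.31 ± 0.12), and the summed level of the list was 24036 to 34379.6 CPM in the UVB females and 22011 to 32408 CPM in the no-UVB females. *Tcap* lost its call without UVB females 1, 2 or 3 or no-UVB females 1, 2, 3 or 4, with DESeq2 size factors, with upper quartile scaling or with at least 10 counts in every mouse, and 1 muscle gene was lower without UVB female 4. Of 14 adipocyte genes 2 were higher, *Cidea* (0.51 ± 0.15) and *Pparg* (0.33 ± 0.11), with summed levels of 4434 to 8825 CPM in the UVB females and 4569 to 7272 CPM in the no-UVB females. The adipocyte count was 0 without UVB female 1, 1 without UVB females 2 or 3 or no-UVB females 1 or 3 or in a fit of all 16 mice and 4 without no-UVB female 4. *Cidea* lost its call without UVB females 1 or 3 and *Pparg* without UVB females 1 or 2 or no-UVB females 1 or 3 or in a fit of all 16 mice. In both lists the groups overlapped, and the part of muscle or fat in other results was not tested. Of 19 clock genes, *Npas2* (-0.79 ± 0.22) and *Nr1d1* (-0.36 ± 0.13) were lower. *Nr1d1* lost its call without UVB females 1, 3 or 4 or no-UVB females 2, 3 or 4, and the clock genes called higher numbered 1 without UVB female 2 or no-UVB females 2 or 3, by DESeq2, when every gene with a count was kept or in a fit of all 16 mice. Of 24 glycolysis and hypoxia genes, *Pgam1* (0.56 ± 0.091) was the gene called higher in this fit, and the count was 2 without no-UVB female 1, 3 without UVB female 4 or by DESeq2 and 4 in a fit of all 16 mice.

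Set beside males, most female changes had the same direction. Of the 275 raised genes 269 were also tested in the 8 males, where 249 were higher and 0 lower at an adjusted p under 0.1. Of the 183 lowered genes 155 were tested in males, where 134 were lower and 1 higher. The backgrounds for males were 29.000000% of genes higher and 30.5% lower. The median log2 fold change of the raised genes was 1.46 in females and 2.03 in males, and that of the lowered genes was -1.21 and -1.25; the raised and lowered sets were chosen on the female values. The interaction of UVB and sex, fitted over all 16 mice, passed an adjusted p under 0.1 for 478 genes with the more positive response in males (2.75%) and 740 with the more positive response in females (4.25%). Of the 275 raised genes, 48 were among the former and 8 among the latter. These interaction counts depended on single mice: the first was 163 without UVB male 1, 173 without no-UVB male 2, 196 without UVB female 1, 235 without no-UVB female 3, 239 without no-UVB male 1, 242 without UVB male 2, 302 without UVB female 2, 741 without no-UVB male 3, 747 without no-UVB female 4 and 835 without UVB female 3, and the second was 298 without UVB male 1, 305 without no-UVB male 2, 322 without UVB female 1, 441 without no-UVB female 3, 464 without UVB male 2, 466 without no-UVB male 1 and 488 without no-UVB female 2. DESeq2's Wald test gave 1102 for the first.

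The genes that changed in females and had the more positive change in males included *Krt6b* and *Krt16*. Their log2 fold changes were 4.85 ± 0.42 and 2.97 ± 0.38 in females and 8.72 ± 0.39 and 6.11 ± 0.28 in males (interaction 3.86 ± 0.59, adjusted p = 0.0078 and 3.12 ± 0.49, adjusted p = 0.0098). *Gjb6* (2.07 ± 0.30 and 5.05 ± 0.33, interaction 2.95 ± 0.50, adjusted p = 0.012), *Lce3e* (4.06 ± 0.29 and 7.58 ± 0.66, interaction 3.51 ± 1.002, adjusted p = 0.071) and *Prg4*, lubricin (0.98 ± 0.33 and 4.04 ± 0.38, interaction 3.03 ± 0.53, adjusted p = 0.014), followed the same pattern. The female call of *Prg4* was lost without UVB females 2 or 4 or no-UVB females 2 or 3. Of the genes the study follows, *S100a8* was at 0.17 ± 0.39 in females and 3.67 ± 0.64 in males (interaction 3.47 ± 0.77, adjusted p = 0.033), and *Ptges* at 0.57 ± 0.11 and 1.28 ± 0.063 (interaction 0.70 ± 0.13, adjusted p = 0.016). For *Ptgs2* the values were 1.01 ± 0.34 and 1.09 ± 0.18 (interaction 0.058 ± 0.41, adjusted p = 0.95).

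Negative interactions mark genes whose change was more positive in females than in males, whichever change was larger in size. *Ces2e*, a carboxylesterase, was at 2.63, 2.72, 2.196 and 1.89 CPM in the UVB females and at 0.269, 0.3696, 0.442 and 0.5803 CPM in the no-UVB females (log2 fold change 2.50 ± 0.25, adjusted p = 0.00025), against 0.80 ± 0.24 in males (interaction -1.72 ± 0.37, adjusted p = 0.026). *Serpinb6c*, described above, had 0.69 ± 0.13 in males (interaction -1.54 ± 0.18, adjusted p = 0.00099). *Scgb1a1*, uteroglobin, was at 3.12, 1.89, 2.73 and 2.71 CPM in the UVB females and at 1.03, 2.18, 1.29 and 1.27 CPM in the no-UVB females (log2 fold change 0.84 ± 0.25, adjusted p = 0.049) and moved the other way in males (-1.16 ± 0.31, interaction -2.01 ± 0.42, adjusted p = 0.023). *Hamp2*, a hepcidin gene, fell less in females (-0.97 ± 0.20) than in males (-3.36 ± 0.45, interaction -2.40 ± 0.48, adjusted p = 0.024), and *Fam107a* (0.61 ± 0.21 and -1.47 ± 0.62) and *Cyp2b23* (1.20 ± 0.32 and -0.45 ± 0.25) had interactions of -2.09 ± 0.66, adjusted p = 0.099 and -1.66 ± 0.44, adjusted p = 0.055. In females the call of *Scgb1a1* was lost without UVB females 1, 3 or 4 or no-UVB females 3 or 4, that of *Fam107a* without UVB females 1 or 4 or no-UVB females 2 or 3 or in a fit of all 16 mice and that of *Cyp2b23* when every gene with a count was kept.

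By list, the female and male responses lay close in some groups and apart in others. For p53 targets the median log2 fold change was 0.43 in females and 0.47 in males, and 1 and 2 of 25 genes passed the interaction with the higher response in males and in females. For mitosis and G2/M genes the medians were 0.47 and 0.94, with 1 gene past the interaction. For skeletal muscle genes they were 0.058 and -0.52, and 12 of 22 genes passed the interaction, all with the lower response in males. For the Schwann cell genes they were 0.068 and -0.50, with 5 of 8 genes past it, and for the clock genes 0.025 (-0.013 with upper quartile scaling) and -0.35, with 6 of 19 lower and 1 higher in males. For barrier ceramide synthesis the medians were 0.59 and 1.02, and 6 of 20 genes had the higher response in males.

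**Figure D4:**
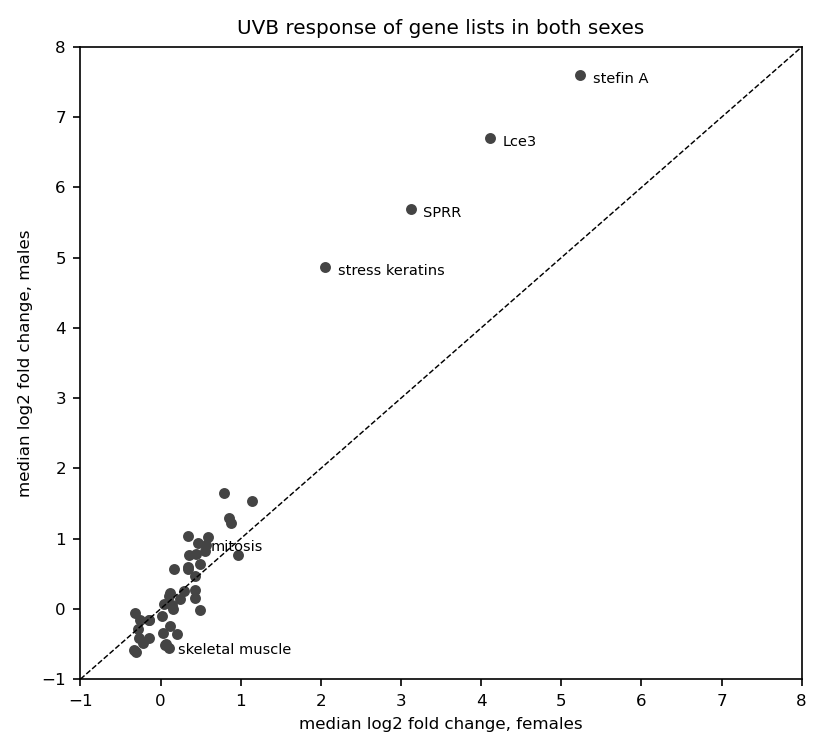
Median log2 fold change of each of 48 gene lists in females (horizontal axis) and in males (vertical axis), one point per list, with the line of equal response dashed. Lists of the cornified envelope lie above the line, with the Lce3 list at 4.11 in females and 6.71 in males, and the skeletal muscle list lies below it at 0.058 and -0.52.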

How the data were processed

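Poly(A) RNA of whole dorsal skin was sequenced from directional libraries, 1 per mouse. The authors aligned reads to GRCm39 with STAR and deposited its counts of reads per gene, raw and in 3 columns by strand. Column 4, the strand of the kit, was used, since column 3 held 3.63 to 4.16% of the reads of both columns in females. Of the reads in a female table, 70.1 to 77.4% lay on genes, 10.1 to 16.4% were unmapped and 0 were counted as mapping to several places; rows that name no gene were left out of library sizes and tests. Of 55359 identifiers, 54749 were found in GENCODE M39, whose annotation gave symbols, spans and start sites, and 610 were not. The STAR version and annotation release are not given in the sources used here.

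Genes were kept by edgeR's filterByExpr with a count minimum of 10. Counts were scaled by TMM and tested with edgeR 4.0.16 (quasi-likelihood, robust, R 4.3.3) on the 8 females, with UVB as the only term. Log2 fold changes are those of the fit, at edgeR's default prior count. The prior count of 2 applies to log2 CPM values only, as in the plots of single mice and the principal components. Folds against silent groups use a floor of 3 counts per library, and floors cover counting error only. Males were fitted alone, and the interaction over all 16 mice. Standard errors are the log2 fold change divided by the square root of F. Called means a Benjamini-Hochberg adjusted p under 0.1. All tests are two-sided, and where the labels do not say that mice differ in litter or day, p-values measure the spread between these mice. No pair of female libraries of a group was alike within sampling noise (chi-square per degree of freedom from 15.1 to 98.3). Alternatives were DESeq2 1.42.0, apeglm 1.24.0, other scalings and filters, unstranded counts, a replicate block, all 16 mice in 1 fit, a stricter threshold and each mouse left out.

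The members, gene lists and tests were chosen with earlier results of these data known. Genes were named by rule: the 15 largest rises and falls without overlap and with a mean of at least 1 CPM, the 5 smallest p-values of each sign at the same mean, the extreme and the most abundant members of each list, the 5 largest interactions of each sign among genes called in females with a mean of at least 1 CPM, and the genes the study discusses. Other genes were named after their values were seen.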

Additional observations from a re-analysis of the deposited data

Results flagged for a closer look

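Of the genes named above, 39 passed the interaction of UVB and sex at an adjusted p under 0.1 by edgeR's quasi-likelihood test. The difference (male minus female log2 fold change) was positive for *Sprr2e* (4.74), *Krt6b* (3.86), *Sprr2f* (3.70), *Lce3e* (3.51), *S100a8* (3.47), *Krt16* (3.12), *Prg4* (3.03), *Gjb6* (2.95), *Gsdmc* (2.90), *Cstdc5* (2.72), *Krt6a* (2.48), *Gjb2* (2.43), *Degs2* (2.30), *S100a9* (2.24), *Defb14* (2.16), *Slpi* (2.15), *Tgm3* (1.22), *Krt14* (0.95), *Il36rn* (0.95), *Pmaip1* (0.88), *Ccl2* (0.86), *Cers3* (0.76), *Ivl* (0.71), *Ptges* (0.70) and *Hpgds* (0.49). It was negative for *Fos* (-3.05), *Hamp2* (-2.40), *Fam107a* (-2.09), *Scgb1a1* (-2.01), *Ces2e* (-1.72), *Cyp2b23* (-1.66), *Serpinb6c* (-1.54), *Col1a2* (-1.23), *Dab1* (-1.09), *Lce1m* (-0.92), *Nr1d1* (-0.68), *Tcap* (-0.67), *Skint9* (-0.60) and *Lum* (-0.59).

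In 380 groups of 4 females (190 genes, UVB and no-UVB), 25 had a single mouse far from the other 3 by Dixon's criterion, and chance alone gives about 1 in 20. Among the UVB females the mouse far above the others held 444 CPM of *Cd34* (UVB female 2), 0.967 CPM of *Cd5l* (UVB female 1), 19.4 CPM of *Col4a5* (UVB female 3), 45.6 CPM of *Ereg* (UVB female 3), 2.87 CPM of *Npas2* (UVB female 3), 4.54 CPM of *Sdk1* (UVB female 2) and 14.9 CPM of *Tbxas1* (UVB female 2). Among the UVB females the mouse far below the others held 13.4 CPM of *Ddb2* (UVB female 2), 582 CPM of *Krt15* (UVB female 2), 0.483 CPM of *Sprr2f* (UVB female 1) and 8.77 CPM of *Tchh* (UVB female 2). Among the no-UVB females the mouse far above the others held 0.739 CPM of *Clec4d* (no-UVB female 4), 6780.4 CPM of *Col3a1* (no-UVB female 3), 40.4 CPM of *Dct* (no-UVB female 1), 46.4 CPM of *Hsd17b7* (no-UVB female 3), 13.5 CPM of *Il1a* (no-UVB female 2), 67.99 CPM of *Kitl* (no-UVB female 1), 1.75 CPM of *Mug5* (no-UVB female 1), 16.8 CPM of *Pmel* (no-UVB female 1), 2.83 CPM of *S100a9* (no-UVB female 1), 13.8 CPM of *Sdk1* (no-UVB female 4) and 37.3 CPM of *Tyrp1* (no-UVB female 1). Among the no-UVB females the mouse far below the others held 729.8 CPM of *Elovl4* (no-UVB female 4), 1035 CPM of *Krt14* (no-UVB female 4) and 1880.1 CPM of *Krt5* (no-UVB female 4). No-UVB female 1 held the high value of *Dct*, *Tyrp1* and *Pmel* together, all genes of melanocytes.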

How the results depend on the processing

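Leaving out 1 mouse gave 247 to 342 raised and 167 to 220 lowered genes, 1500 to 2054 higher and 1210 to 1762 lower at any fold. The interaction counts moved more, from 163 (without UVB male 1) to 835 (without UVB female 3) for the more positive response in males and from 298 (without UVB male 1) to 1020 (without no-UVB male 3) for females. With at least 10 counts in every mouse the raised genes were 180, since genes near 0 without UVB drop out. With fold changes shrunk by apeglm after DESeq2, 213 genes were raised and 106 lowered. The more positive response in males had 229 genes when every gene with a count was kept and 1102 with DESeq2; the cause was not tested. Under the other alternatives these 6 counts stayed within 1.5 times their values in the report. Of the 154 named genes past the threshold, 28 lost it under some other alternative and 34 when a mouse was left out, and 0 changed sign. The 36 named genes not past it gained a call in 9 of 288 values with a mouse left out. Under other alternatives they gained a call in 4 of 287 values. Among the 36 that did not pass, the sign turned when a mouse was left out for *Csf3r* from -0.11 to 0.28, *Dct* from -0.36 to 0.30, *Ereg* from -0.18 to 0.22, *Fos* from -0.17 to 0.30, *Hmox1* from -0.0311 to 0.0499, *Krt17* from -0.0924 to 0.19, *Pmel* from -0.46 to 0.30, *Retnlg* from -0.30 to 0.32, *S100a8* from -0.34 to 0.39, *Scd1* from -0.0814 to 0.34, *Serpinb6a* from -0.0211 to 0.16, *Tgfa* from -0.0684 to 0.0535, *Tyr* from -0.50 to 0.60 and *Tyrp1* from -0.19 to 0.66, and under other alternatives for *Hmox1* at -0.0289 (upper quartile scaling), *Retnlg* at 0.0019 (replicate block), *Tyr* at 0.0433 (replicate block) and *Tyrp1* at -0.0216 (upper quartile scaling).

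The replicate numbers in the labels name mice and are not stated to pair them. The deviations of same-numbered UVB and no-UVB females correlated at 0.147, -0.139, 0.234 and -0.09299, so the numbers were not taken as pairs. With the replicate number as a block, 280 genes were raised and 162 lowered, 1966 higher and 1514 lower at any fold, and 12 of 154 named genes past the threshold lost it. Members of gene lists moved by more than 1.5 times with the block as follows: immediate early 3 to 1 higher, skeletal muscle 1 to 0 higher, blood cell 0 to 1 higher, circadian clock 0 to 1 higher, glycolysis and hypoxia response 1 to 4 higher, interferon-stimulated 5 to 2 lower, EGF receptor and its ligands 1 to 2 lower, skeletal muscle 0 to 1 lower, macrophage and monocyte 4 to 2 lower and Langerhans cell and MHC class II 1 to 2 lower. The interaction with the block gave 382 and 647 genes. Genes with few reads carry the widest errors, and differences in them were not detectable at this depth unless large.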
